A study of Rattus norvegicus with 4 samples.

Results

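The genes of cell adhesion to the basement membrane were examined in RTEC11, a tracheal epithelial cell line from rats that carry a temperature-sensitive large T antigen of simian virus 40. The antigen keeps the cells dividing at the permissive temperature of 33 °C and is inactive at the nonpermissive temperature of 39 °C. Cells of both groups come from this 1 line, carry the same antigen gene and were held at 33 °C or 39 °C for 3 days, with 2 arrays at each temperature. Temperature and antigen activity changed together, so their effects cannot be told apart. The probe sets examined are those annotated to a single gene symbol that begins with Itga, Itgb, Lama, Lamb or Lamc followed by a digit, or that is Col17a1, Dst, Plec, Cd151, Ilk, Parva, Vcl, Tln1, Pxn, Ptk2, Zyx or Dag1. There were 44 of these among 15866 probe sets other than controls, and they represent 31 of the 10411 genes with a probe set of their own. No probe set matched Col17a1 or Dst by a single symbol, so these hemidesmosome genes were not analysed here. The name rule also took in Itgb1bp1, Itgb1bp2 and Itgb3bp, which encode proteins that are not integrins and are described apart.

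Integrins are receptors made of an alpha and a beta subunit, and epithelial cells use them to hold on to laminins, the trimeric proteins of the basement membrane built from an alpha, a beta and a gamma chain. In the hemidesmosome of airway basal cells the heterodimer of Itga6 and Itgb4 binds laminin outside the cell and plectin, encoded by Plec, inside, which links it to keratin filaments. In focal adhesions, integrins that contain the Itgb1 subunit connect instead to actin through adaptors such as talin, vinculin, paxillin and zyxin. Dystroglycan, encoded by Dag1, is a laminin receptor of another family.

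Intensities had been scaled on each array before deposit, and median intensities were 152.35 to 174 over the 4 arrays. Replicates correlated at 0.979 and 0.98 on the log2 scale, against 0.95 to 0.953 between temperatures. Nothing in the labels tells whether replicate arrays came from separate cultures, so the spread behind each p-value may be technical. Of 9 epithelial marker genes with a probe set, 8 lay at or above the limit for dim probe sets, an intensity of about 81.1 averaged over the arrays, with 4 called higher and 2 lower at 39 °C. Krt5 lay under it. Of 8 fibroblast markers 1 lay above it (Col3a1, higher at 39 °C), of 5 smooth muscle markers 2 (Acta2 and Des, 1 of them higher), of 5 leukocyte markers 1 (Cd14, not called) and of 3 endothelial markers 0. The summed intensity of the fibroblast list was 239.2 to 263.9 at 33 °C and 351.1 to 397.7 at 39 °C, and that of the epithelial list was 72280 to 75310 and 82680 to 83540. The sum of the smooth muscle list lay within 615.2 to 799.1 at 33 °C and 501.3 to 594.4 at 39 °C, the leukocyte list within 924.2 to 981.8 and 763.2 to 857.7, and the endothelial list within 14.34 to 40.12 and 29.54 to 105.3. The part of these shifts in the results below was not tested, and in a bulk culture fewer cells of a type and less RNA per cell cannot be told apart.

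Among the receptors, ligands and adaptors, Itgb4, the laminin chain Lama5, the focal adhesion kinase Ptk2 and dystroglycan stood higher at 39 °C, while the adaptor Zyx and the binding protein Itgb1bp1 stood lower. Of the 44 probe sets, 32 belonging to 24 genes passed the limit for dim probe sets and were tested with limma, and 18 were called at an adjusted p under 0.05, 10 higher and 8 lower. That is 56.2%, against 47.2% of all 9520 probe sets tested, of which 22.5% were higher and 24.7% lower at 39 °C, a share too near to that of all probe sets to set these genes apart. In 27 of the 32 the 33 °C and 39 °C arrays did not overlap, against 74.2% of all tested. The median log2 change was -0.0078 over the 32 and -0.03 over all. A change of at least 2-fold with a call was found for 2 of the 32, Itgb4 and 1 probe set of Itgb3bp, against 10.9% of all. By gene, 8 were higher in every called probe set, 6 were lower, Itgb1 had calls in both directions and 9 had no call. With 1 probe set per gene, 9 of 24 member genes were called higher and 6 lower. In that fit 49.1% of all 7016 genes tested were called, and 47% of these calls were higher. The split of calls depended on how the arrays were scaled. On the deposited scale 11 were higher and 9 lower. After centring each array on its median (median centring) the counts were 7 and 11. After scaling each array to its probe sets for poly-A control RNAs (spike-in scaling) they were 4 and 15. The mean log2 values of these control probe sets were 6.63 and 6.69 at 33 °C and 6.99 and 7.09 at 39 °C. These lie not far above the limit for dim probe sets, a log2 value of 6.60. Whether these RNAs were added to the samples, and how much of their signal is background, was not tested. The median log2 change of all tested probe sets was 0.03 on the deposited scale, -0.12 after median centring and -0.35 after spike-in scaling, against -0.03 after the quantile normalization used here.

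**Figure D1:**
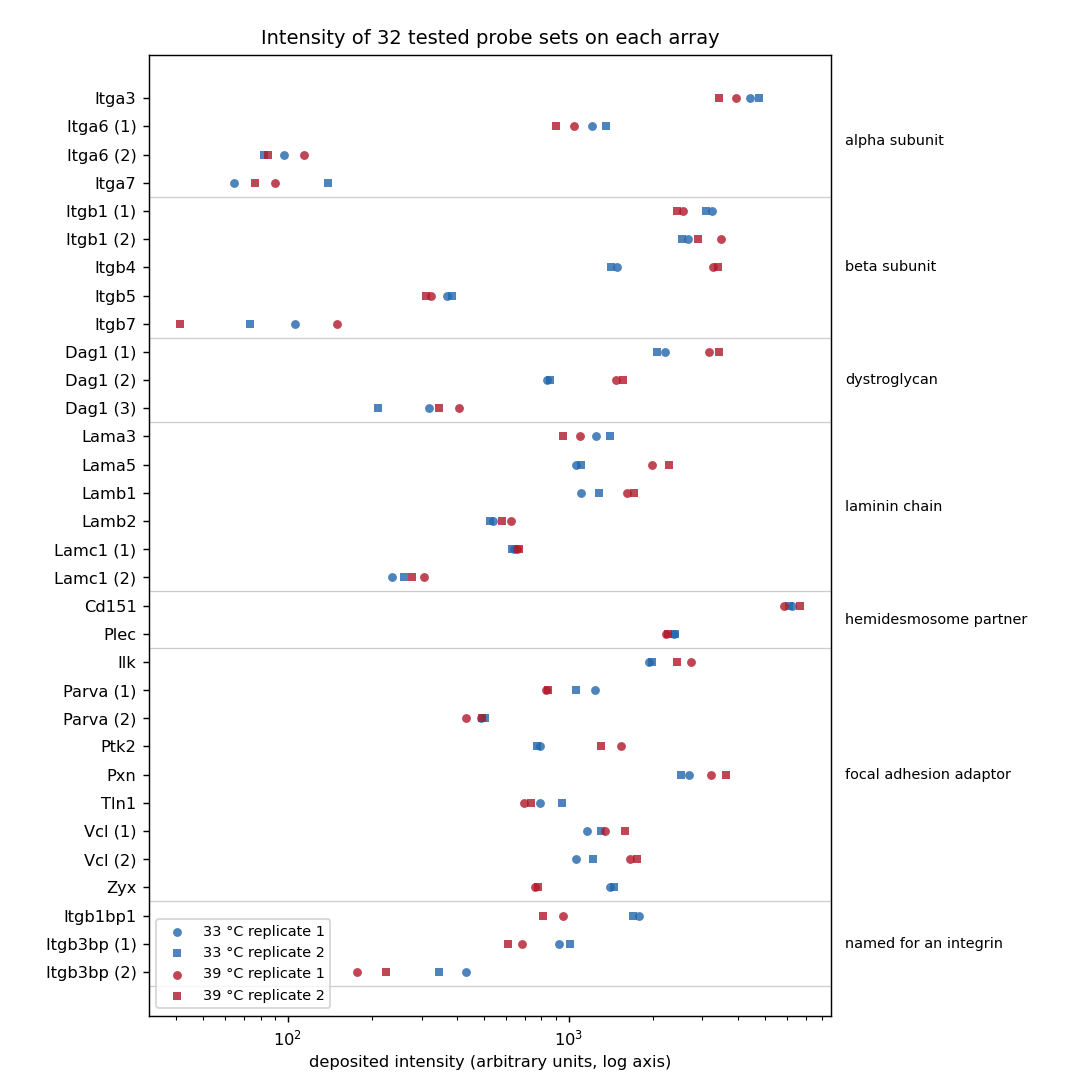
Deposited intensity (log axis) of the 32 tested probe sets on each of the 4 arrays, grouped by role, with 33 °C in blue and 39 °C in red; a number in brackets separates probe sets of 1 gene. The 33 °C and 39 °C arrays of Itgb4, Lama5, Ptk2 and Zyx lie well apart, and those of Itga7 and Itgb7 are mixed.

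The beta subunit Itgb4, which pairs with Itga6 in the hemidesmosome, had the largest rise among the tested members. Its intensity was 1489.5 and 1414.6 on the 33 °C arrays and 3281.2 and 3412.2 on the 39 °C arrays. Both 39 °C arrays lay above both 33 °C arrays by more than the gap within either pair. On the scale of log2(intensity + 16), which is used for all changes here and understates those of dim genes, Itgb4 rose from 10.52 ± 0.04 to 11.77 ± 0.05 (SD, n = 2 each). This is a 2.37-fold rise (log2 change 1.25 ± 0.09 SE, adjusted p by limma 1.71e-06). Under the 14 alternatives its log2 change was between 0.81 and 1.30, with a call in each.

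Its partner Itga6 was not called higher by either of its probe sets. The brighter Itga6 probe set (1371186_at) read 1207.4 and 1360.9 at 33 °C and 1043.3 and 903.4 at 39 °C, so the groups did not overlap and the 39 °C arrays were lower. The log2 change was -0.41 ± 0.12 (SE, adjusted p by limma 0.0142). The call was lost without an intensity trend in limma (adjusted p 0.0542), without permissive replicate 2 (-0.32, adjusted p by limma 0.0688) and without nonpermissive replicate 2 (-0.31, adjusted p 0.126). The second Itga6 probe set (1371185_at), near the limit for dim probe sets, read 96.6 and 82.2 at 33 °C and 114 and 84.8 at 39 °C. Its arrays overlapped, and its change of -0.02 ± 0.26 (SE) was not called and turned to 0.12 on the deposited scale. The 2 probe sets of Itga6 did not differ in change past the threshold (difference -0.40 ± 0.25 SE, adjusted p by limma 0.295).

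Itga3, an alpha subunit that pairs with Itgb1 to bind laminin, had a log2 change of -0.19 ± 0.10 (SE) and was not called. It was called lower on the deposited scale (-0.32), after median centring (-0.47) and after spike-in scaling (-0.70). The remaining tested alpha subunit was Itga7, a laminin receptor of muscle. Its log2 change was -0.31 ± 0.32 (SE), its arrays were mixed, and it passed the limit for dim probe sets through the 33 °C arrays. Without permissive replicate 1, which left the higher 33 °C array alone in its group, the change was -0.78. Of 4 tested probe sets of alpha subunits, the brighter one of Itga6 was the 1 called, and it was lower. This is 25% called, against 47.2% of all probe sets tested.

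Of 7 genes with more than 1 tested probe set, the common beta subunit Itgb1 was the 1 whose probe sets went against each other. Probe set 1368819_at read 2655.5 and 2539.4 at 33 °C and 3492.7 and 2881.3 at 39 °C. Both of its 39 °C values were the higher ones, with a log2 change of 0.38 ± 0.11 (SE, adjusted p by limma 0.0129). Probe set 1387346_at read 3244.6 and 3096.9 at 33 °C and 2546.7 and 2425.5 at 39 °C. Here both 39 °C values were the lower ones, with a log2 change of -0.27 ± 0.09 (SE, adjusted p by limma 0.0277). The changes of the 2 probe sets differed by 0.65 ± 0.15 (SE) on the log2 scale, with an adjusted p of 0.00334 by limma over 1378 pairs of probe sets of 1 gene, of which 16% were called. The difference was no longer called without an intensity trend (adjusted p by limma 0.0681) or without nonpermissive replicate 1 (adjusted p 0.0734). After median centring the first probe set was at 0.14 and not called, and after spike-in scaling it turned to -0.09 without a call, while the second was at -0.73. Without an intensity trend neither was called (adjusted p by limma 0.0737 and 0.105). Each probe set also lost its call in some fits that left out 1 array: the first was at 0.23 without nonpermissive replicate 1, and the second at -0.24 without permissive replicate 1, -0.32 without nonpermissive replicate 1 and -0.23 without nonpermissive replicate 2. Both probe sets carry the same transcript accession in the platform annotation, and which stretch of the transcript each one matches was not analysed here. Ratios of 3' to 5' control probe sets, a sign of RNA integrity, were 1.14 and 1.17 for Gapdh at 33 °C and 1.01 and 1.12 at 39 °C, and 1.18 to 1.38 for beta-actin over all arrays. Their part in the disagreement was not tested. No direction is given for Itgb1 as a gene.

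The other tested beta subunits were not called. Itgb5, a subunit of vitronectin receptors, had a log2 change of -0.35 ± 0.14 (SE, adjusted p by limma 0.0615), and was called after median centring (-0.39) and after spike-in scaling (-0.62). Itgb7, a subunit of leukocyte integrins, read 105.8 and 73.1 at 33 °C and 150.1 and 41.4 at 39 °C. Its 39 °C arrays enclosed the 33 °C arrays, it passed the limit for dim probe sets through the 33 °C arrays, and its change of -0.20 ± 0.40 (SE) was not called and was 0.48 without nonpermissive replicate 2.

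Dystroglycan was higher at 39 °C by 2 of its 3 probe sets. The first (1371429_at) read 2210.9 and 2061.7 at 33 °C and 3171.7 and 3423.3 at 39 °C, a 1.62-fold rise (log2 change 0.69 ± 0.09 SE, adjusted p by limma 0.000123). The second (1371430_at) read 838.5 and 856 at 33 °C and 1476.6 and 1558.2 at 39 °C, a 1.76-fold rise (0.82 ± 0.10 SE, adjusted p by limma 7.8e-05). In both, the groups lay apart. The third (1389105_at) read 317.2 and 209.1 at 33 °C and 405.6 and 345.6 at 39 °C, with a log2 change of 0.40 ± 0.19 (SE) that was not called. It was called on the deposited scale (0.51), with a replicate block (0.40) and without permissive replicate 1 (0.68), and its change was 0.12 without permissive replicate 2, 0.29 without nonpermissive replicate 1 and 0.13 after spike-in scaling, with no call in these. The first was not called after spike-in scaling (0.24), where the second was at 0.45 and was called. Differences in change among the 3 were not called, with adjusted p by limma of 0.227 to 0.648. Without permissive replicate 2, 1371430_at and 1389105_at differed by 0.71 with a call (adjusted p by limma 0.0429).

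**Figure D2:**
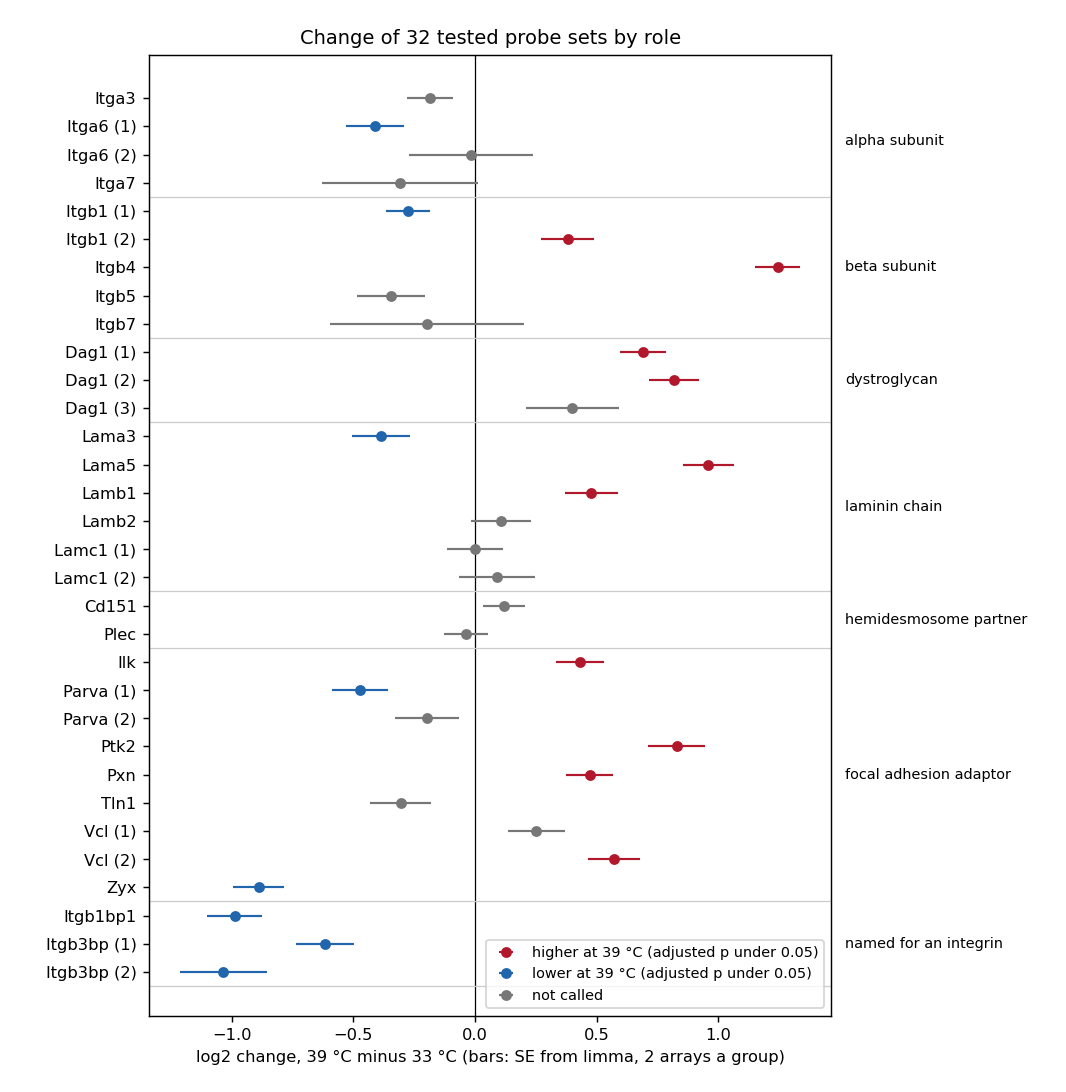
Log2 change from 33 °C to 39 °C of the 32 tested probe sets by role, with bars of 1 SE from limma (2 arrays a group), red for probe sets called higher at 39 °C, blue for lower and grey for not called. Itgb4 at 1.25 and Lama5 at 0.96 stand farthest to the right, and Zyx and the binding proteins farthest to the left.

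Among the laminin chains, alpha chains moved in opposite directions. Lama5, the alpha chain found in basement membranes of most epithelia, read 1065.2 and 1105.8 at 33 °C and 1982.5 and 2277.6 at 39 °C. The groups lay far apart relative to their spread. Lama5 rose 1.95-fold (log2 change 0.96 ± 0.11 SE, adjusted p by limma 2.67e-05), and its change was between 0.58 and 1.07 under the 14 alternatives, with a call in each. A second Lama5 probe set (1377428_at), at 2.8 to 39.2, lay under the limit for dim probe sets and was not tested. Lama3, the alpha chain of the laminin to which hemidesmosomes attach, read 1256.2 and 1408.7 at 33 °C and 1102.4 and 958.1 at 39 °C. Its 39 °C arrays were the lower ones, with a log2 change of -0.39 ± 0.12 (SE, adjusted p by limma 0.0187). The Lama3 call was lost without an intensity trend (adjusted p by limma 0.0645), without permissive replicate 2 (-0.29) and without nonpermissive replicate 2 (-0.28). The beta chain Lamb1 read 1104.7 and 1288.4 at 33 °C and 1615.3 and 1714.1 at 39 °C, a log2 change of 0.48 ± 0.11 (SE, adjusted p by limma 0.00392). After spike-in scaling Lamb1 was at 0.09 and was not called. Lamb2, the beta chain that can take its place, was at 0.11 ± 0.12 (SE) and was not called. The gamma chain Lamc1, shared by most laminins, was at 0.0007 ± 0.12 (SE) by 1 probe set (1371322_at) and 0.09 ± 0.16 (SE) by the other, and neither was called. After spike-in scaling Lamb2 turned to -0.20, and the Lamc1 probe sets turned to -0.33, just past the threshold, and -0.16. In all, 2 of 6 tested laminin probe sets were called higher and 1 lower, 50% against 47.2% of all probe sets tested.

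The promoter of Lama5, the laminin chain with the largest rise, is shown from RefSeq (build GRCr8, chr3:187695975-187696224, minus strand), 5' to 3'. The stretch ends before the gene's start. Capitals mark the GC box GGGCGG, read on both strands, which is the core motif bound by Sp1-family factors.
Lama5: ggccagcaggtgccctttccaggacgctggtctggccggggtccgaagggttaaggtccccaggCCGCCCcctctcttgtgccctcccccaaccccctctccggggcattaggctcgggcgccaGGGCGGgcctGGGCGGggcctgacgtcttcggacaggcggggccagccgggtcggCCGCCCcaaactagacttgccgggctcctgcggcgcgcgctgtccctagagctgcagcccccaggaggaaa
This stretch held 4 GC boxes and was 72.8% G or C. Of 33469 rat promoter windows of 250 bases, 30.5% held at least 1 GC box. Windows of this kind were found for 23 of the 31 genes, 25 windows in all, and 11 of these held a GC box. A match describes the letters only, and no measurement here bears on binding.

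Of the hemidesmosome partners, neither tested gene was called by limma (unadjusted p 0.693 for Plec and 0.192 for Cd151). Plec, which encodes the plectin that joins Itgb4 to keratin, read 2375.4 and 2391 at 33 °C and 2217.2 and 2263.2 at 39 °C. On the deposited scale its 39 °C arrays were slightly lower, and the log2 change after normalization was -0.04 ± 0.09 (SE, adjusted p by limma 0.762). After spike-in scaling it was at -0.47 and was called. Cd151, a tetraspanin that associates with laminin-binding integrins, read 6247.7 and 6096.1 at 33 °C and 5869.9 and 6700.7 at 39 °C. Its deposited values overlapped, and its change of 0.12 ± 0.09 (SE, adjusted p by limma 0.277) turned to -0.13 after median centring and, with a call, to -0.36 after spike-in scaling.

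Of 9 tested probe sets of focal adhesion adaptors, 4 were called higher, 2 lower and 3 not called, against 22.5% called higher and 24.7% lower of all probe sets tested. Ptk2, the focal adhesion kinase that signals from integrin clusters, read 789 and 773.8 at 33 °C and 1539.9 and 1301.1 at 39 °C. It rose 1.78-fold with no overlap (log2 change 0.83 ± 0.12 SE, adjusted p by limma 0.00015), and was called in each of the 14 alternatives, between 0.46 and 0.96. Its other probe set (1394338_x_at) lay under the limit for dim probe sets. Zyx, the LIM-domain protein zyxin of mature adhesions and stress fibres, went the other way. It read 1399.8 and 1449.2 at 33 °C and 760.2 and 779.8 at 39 °C, with each pair close together. Zyx was 1.85-fold lower (log2 change -0.89 ± 0.11 SE, adjusted p by limma 4.58e-05), and was called in each of the 14 alternatives, between -1.25 and -0.85.

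Vinculin, encoded by Vcl, which reinforces the link from talin to actin, was called by 1 of its 2 probe sets. The called one (1375538_at) read 1064.2 and 1219.1 at 33 °C and 1656.9 and 1759.3 at 39 °C, all of the latter above the former, with a log2 change of 0.57 ± 0.11 (SE, adjusted p by limma 0.0011). The other (1372905_at) read 1164.9 and 1307.4 at 33 °C and 1347 and 1588.6 at 39 °C, with a change of 0.25 ± 0.12 (SE, adjusted p by limma 0.0983). After spike-in scaling they were at 0.20, not called, and -0.14. Their changes did not differ past the threshold (0.32 ± 0.17 SE, adjusted p by limma 0.215). The paxillin gene Pxn, a scaffold of early adhesions, rose by 0.47 ± 0.10 (SE) on the log2 scale (adjusted p by limma 0.00201), and the integrin-linked kinase gene Ilk by 0.43 ± 0.10 (SE, adjusted p by limma 0.00403). Both calls were lost after median centring (0.24 and 0.24) and after spike-in scaling (0.0077 and 0.0086), and that of Ilk also without nonpermissive replicate 1 (0.34).

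Parva, encoding the parvin that binds integrin-linked kinase, was called in the other direction. Its brighter probe set (1371588_at) was lower, with a log2 change of -0.47 ± 0.12 (SE, adjusted p by limma 0.00594) that was called in each alternative. The other (1370266_at) was at -0.20 ± 0.13 (SE) and was called after spike-in scaling (-0.49) and not otherwise, and the difference between them, -0.27 ± 0.20 (SE), was not called either. Tln1, the talin that activates integrins by binding their beta tails, was at -0.31 ± 0.12 (SE, adjusted p by limma 0.0633). It was called lower after median centring (-0.42), after spike-in scaling (-0.65), with a replicate block (-0.31) and without permissive replicate 1 (-0.43).

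**Figure D3:**
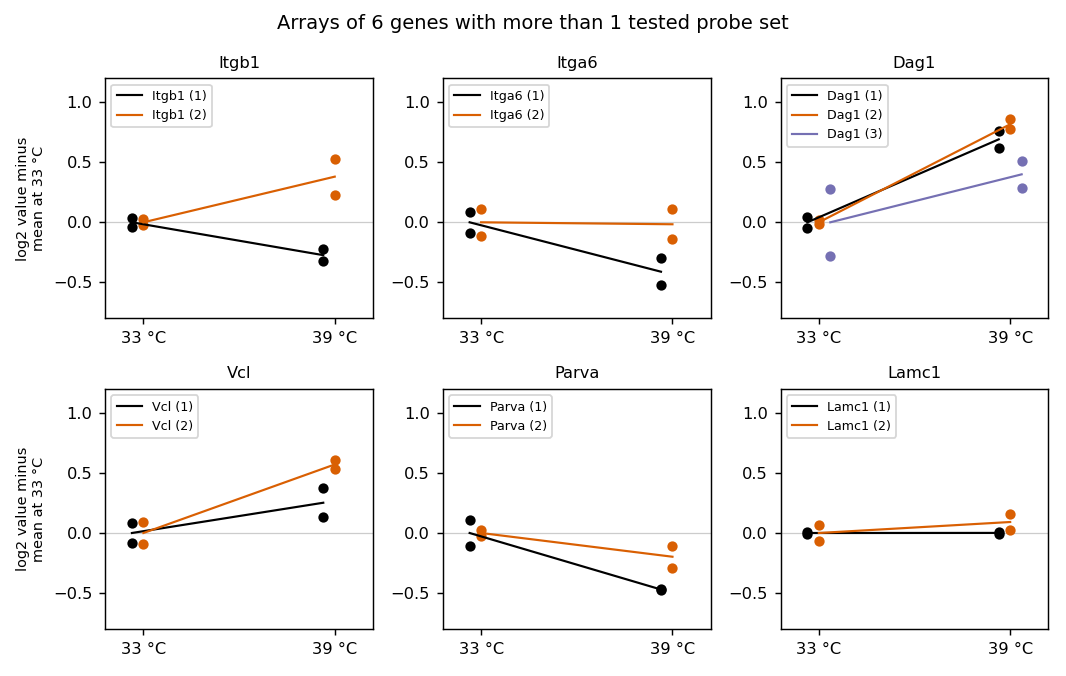
Normalized log2 values of each array, less the probe set's mean at 33 °C, for 6 genes with more than 1 tested probe set; points are arrays and lines join the group means. The Itgb1 lines run in opposite directions (-0.27 and 0.38), and in Itga6, Dag1, Vcl, Parva and Lamc1 no difference between probe sets was called.

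The promoters of Zyx and Pxn, adaptors of the same LIM-domain kind with calls in opposite directions, are set side by side from RefSeq (build GRCr8). They lie at chr4:72203750-72203990 (plus strand) and chr12:46768707-46768947 (minus strand), each ending at the base before the gene's start. Capitals mark a GC box or the E-box CACGTG, the motif bound by factors such as Myc and Usf, on either strand.
Zyx: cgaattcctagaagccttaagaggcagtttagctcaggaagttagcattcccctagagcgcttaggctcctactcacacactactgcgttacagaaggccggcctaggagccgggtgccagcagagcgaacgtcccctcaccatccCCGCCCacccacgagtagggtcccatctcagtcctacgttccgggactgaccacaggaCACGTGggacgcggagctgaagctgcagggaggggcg
Pxn: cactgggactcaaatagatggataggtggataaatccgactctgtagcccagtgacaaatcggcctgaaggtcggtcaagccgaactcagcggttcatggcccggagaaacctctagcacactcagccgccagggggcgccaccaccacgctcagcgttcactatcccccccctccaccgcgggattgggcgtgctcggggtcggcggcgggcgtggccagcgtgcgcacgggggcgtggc
The Zyx stretch held 1 GC box and 1 E-box, and the Pxn stretch neither. An E-box was found in 5.59% of all promoter windows and in 1 of the 25 windows of the genes examined, that of Zyx. The CArG box, bound by serum response factor, was found in 1.5% of all windows and in 1 of the 25, that of Lama2. The AP-1 motif TGANTCA was found in 6.34% of all windows and in 1 of the 25, that of Lama3. The motif TATAAA was found in 12.9% of all windows and in 2 of the 25, those of Itgb7 and Lama4.

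Of the genes named after integrins whose products are not receptor subunits, Itgb1bp1 and Itgb3bp had 3 tested probe sets. These 3 were called lower at 39 °C, against 24.7% of all probe sets tested. Itgb1bp1, whose product binds the Itgb1 tail and competes with talin, read 1780.7 and 1699.8 at 33 °C and 954.6 and 810.3 at 39 °C. With no overlap, it was 1.98-fold lower (log2 change -0.99 ± 0.11 SE, adjusted p by limma 3.79e-05). Itgb3bp, which encodes a centromere protein, had 2 tested probe sets. One (1390604_s_at) read 923.4 and 1015.2 at 33 °C and 684.6 and 610.5 at 39 °C, and the other (1377182_at) 429.6 and 346 at 33 °C and 176.6 and 223.1 at 39 °C. Both were lower without overlap, with log2 changes of -0.62 ± 0.12 and -1.03 ± 0.18 (SE, adjusted p by limma 0.00149 and 0.000619), and the difference between them was not called (adjusted p by limma 0.258). These 3 probe sets were called in every alternative in which they were tested. Without the binding proteins 29 tested probe sets remain, of which 10 were higher and 5 lower. This is 51.7% called, near the 47.2% of all probe sets tested.

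Under the limit for dim probe sets were 12 of the 44, at intensities of 2.8 to 89.5, and none of these has a test here. The genes represented only in this way are the alpha subunits Itga1, Itga2b and Itga8, the laminin chains Lama1, Lama2 and Lama4, and Itgb1bp2, whose product is found in muscle. Further dim probe sets belong to Itga7 (2 of its 3), Itgb5, Lama5 and Ptk2. The 33 °C and 39 °C arrays overlapped in 8 of the 12 on the deposited scale. The share over all dim probe sets is not given here, so separation in the others is not read as a result. In Itga1, a collagen receptor subunit, the values were 32.9 and 45.5 at 33 °C and 7.3 and 5.9 at 39 °C. In Lama2 they were 23.9 and 42.6 at 33 °C and 3.2 and 5.4 at 39 °C. Both were lower at 39 °C without overlap. The dim probe sets of Lama5 (9.7 and 2.8, then 39.2 and 12.2) and Itgb5 (67.6 and 61.2, then 89.5 and 71.7) were higher at 39 °C without overlap, the latter opposite in sign to the tested Itgb5 probe set. No detection call was available for these readings.

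**Figure D4:**
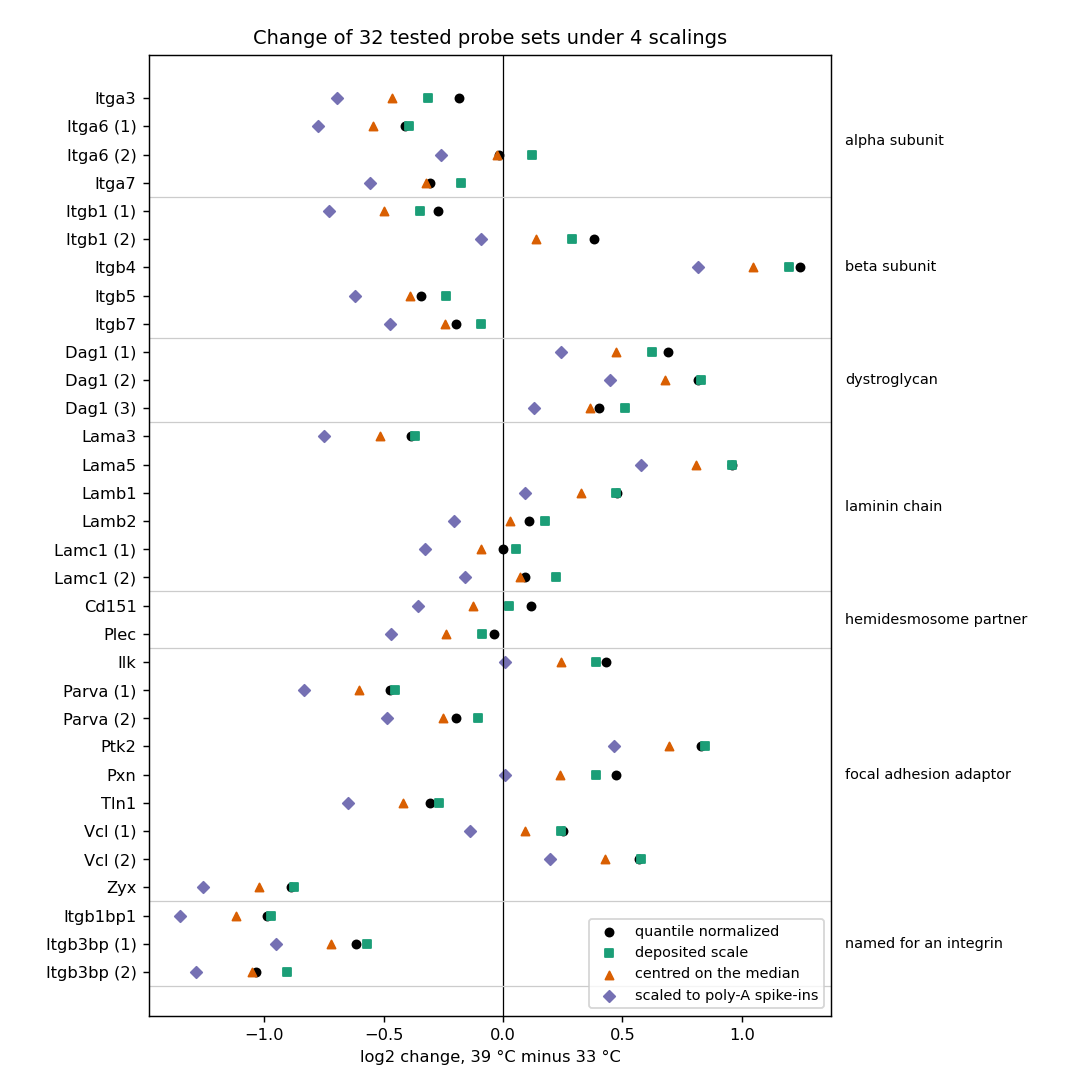
Log2 change from 33 °C to 39 °C of the 32 tested probe sets under quantile normalization, the deposited scale, centring on array medians and scaling to poly-A spike-ins. Itgb4, Lama5 and Ptk2 stay above 0 and Zyx and Itgb1bp1 below 0 under each. Cd151, Lamb2, both Lamc1 probe sets, Itga6 (2), Itgb1 (2) and Vcl (1) cross 0.

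Other genes of adhesion and the basement membrane gave a wider range of changes. The list had 79 symbols, with Ccn1 and Ccn2 also under their older names, and 63 symbols had a probe set of their own. There were 83 probe sets, of which 63 were tested, 18 called higher and 15 lower. This is 52.4% called, against 47.2% of all, and the median log2 change was -0.0041. The 15 lower include a second Pdlim7 probe set and Itgae, which passed the limit for dim probe sets only through the 33 °C arrays. After median centring 16 were higher and 22 lower, and after spike-in scaling 9 and 29. Of the calls among all probe sets 37.7% and 19.8% were higher under these scalings, against 47.7% after quantile normalization. The largest rises were those of Col4a5, a chain of basement membrane collagen, from 396 and 463.8 to 1948.9 and 1745.7 (log2 change 2.02 ± 0.12 SE), and of the tetraspanin Cd81, from 4069 and 3718.5 to 10489.4 and 10897 (1.55 ± 0.08 SE). Tns1, which encodes the adaptor tensin, had a change of 1.09 ± 0.20 (SE). Among the 3 largest falls, Pdlim7, an actin-associated adaptor with PDZ and LIM domains, read 1520.4 and 1685 at 33 °C and 452.9 and 521.7 at 39 °C by 1 probe set (-1.73 ± 0.12 SE). The adjusted p of these 4 probe sets by limma were between 1.82e-07 and 0.00102. The other falls were of probe sets that passed the limit for dim probe sets only through the 33 °C arrays. Apart from the counts above, they are given as values and not as calls. They were a second Pdlim7 probe set, at 268 and 236.8 at 33 °C and 60.6 and 22.2 at 39 °C, and Itgae, an alpha subunit that pairs with Itgb7 and lies outside the name rule, at 108.8 and 155.6 at 33 °C and 54.3 and 43.7 at 39 °C.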

How the data were processed

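Total RNA of RTEC11 cells was labelled as biotin-cRNA and hybridised to Affymetrix rat arrays, 1 per sample, per the labels' protocols. The values the authors deposited are intensities on a linear scale for 15923 probe sets, whose mean is about 500.2 on each array once 2% is trimmed at each end. The software that made them, and detection calls, are not given in the sources used here. Groups and replicate numbers came from the titles.

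Medians of log2(intensity + 16) differed by 0.175 between arrays, above the limit of 0.1, so arrays were quantile normalized without 57 control probe sets. Probe sets whose mean lay under the 40th percentile (log2 value 6.60) were left out as dim, which left 9520. The fit was made in R 4.3.3 by limma 3.58.1, using lmFit and a trended eBayes with 2 residual and about 9.23 prior degrees of freedom. Tests were two-sided at 0.05, adjusted over all 9520 by Benjamini and Hochberg's method. Pairs of probe sets of 1 gene were compared with limma on their per-array log2 differences, with their mean level as the trend, over 1378 pairs. Genes were named through GEO's platform annotation. The Entrez identifiers of all 31 genes matched RefSeq. In simulated data of 9520 probe sets, 20.9% of 67 planted log2 changes of 0.5 were recovered. Of 67 changes of 1, 82.1% were recovered, and of 66 changes of 2, 97.0%, with 6 false calls among 139. Only the planted probe sets changed there, a far smaller share than the 47.2% called in the arrays. The adjusted threshold depends on that share, so these figures do not measure the power of the tests here. Values by array are given for members called with a log2 change of at least 0.5, for hemidesmosome genes and for genes whose probe sets disagree. Of the adhesion list, the 3 largest rises and falls are named. Further array values, motifs and promoters were chosen after values were seen. The members and lists were chosen with earlier results of these data known. Alternatives were the other scalings, adding 1 or 64, other dim limits, no trend, 1 probe set per gene, a replicate block and fits without 1 array. Figures used matplotlib 3.10.9 (Python 3.11.15).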

Additional observations from a re-analysis of the deposited data

How the results depend on the processing

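Of the 18 called probe sets, 9 kept direction and call in each of the 14 alternatives that tested them (Itgb4, Lama5, Ptk2, Zyx, Itgb1bp1, both of Itgb3bp, and the brighter of Parva and 1371430_at of Dag1), and the other 9 lost the call or turned in at least 1. With spike-in scaling 4 members were higher and 15 lower, and of all probe sets 1081 were higher and 4371 lower. Without an intensity trend 5 members were lower, against 8 with it, and 42.6% of all probe sets tested were called, against 47.2%. With the dim limit at the 60th percentile 145 pair differences were called, against 221. Fits with 1 array left out had 1 array in a group, so their counts of members higher and lower are not compared. Members that turned with the spike-in scaling were Cd151 (-0.36), Itgb1 1368819_at (-0.094), Lamb2 (-0.20), Lamc1 (-0.33 and -0.16) and Vcl 1372905_at (-0.14), and with median centring Cd151 (-0.13) and Lamc1 1371322_at (-0.093). These 2 scalings shift whole arrays from the deposited scale. On that scale Itga6 1371185_at turned to 0.12. Over the fits that left out 1 array, Itga6 1371185_at was between -0.14 and 0.10, Itgb7 between -0.44 and 0.48 and Lamc1 1371322_at between -0.0083 and 0.0096. The cause of these turns was not tested. With the replicate number as a block 20 members were called, 11 higher and 9 lower, and 51% of all probe sets against 47.2% without it. The deviations of same-numbered arrays correlated at -0.0060, so the numbers are not shown to pair the arrays. Signal over background could not be judged without detection calls, so the dim limit stands in for it.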
